A study of Mus musculus with 8 samples.

Results

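The genes described here are 10 members of the Hippo pathway and its output, namely the effectors Yap1 and Wwtr1 (TAZ), the factors Tead1, Tead2, Tead3 and Tead4, the kinases Lats1 and Lats2, and the target genes Ctgf (current symbol Ccn2) and Cyr61 (current symbol Ccn1). A probe was taken as a member when the gene name given for its spot was that of one of these genes, whatever its signal. This gave 16 of the 41174 probes on the array and 10 of its 27827 gene names. Of the 16 probes, 13 passed the filter on dim probes and were tested, among 20030 probes tested in all.

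The Hippo pathway is a kinase cascade that restrains tissue growth. The upstream MST kinases activate the LATS kinases, which phosphorylate YAP and TAZ and hold them in the cytoplasm or send them to degradation. Unphosphorylated YAP and TAZ enter the nucleus, where they bind TEAD proteins on DNA and raise the transcription of genes such as Ctgf and Cyr61. In the developing heart, YAP with TEAD is known to drive the proliferation of cardiac muscle cells. Much of this regulation acts on the proteins, which arrays of RNA do not measure.

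At E9.5, mouse embryos were dissected for the posterior second heart field (pSHF), a mesenchyme dorsal to the heart tube from which part of the atrial septum forms. The mutant group was heterozygous for a Tbx5 mutation (Tbx5-/+, n = 4) and the control group was wild-type (n = 4). Each sample was a separate pool of RNA, with the number of embryos per pool not given. The samples carry embryo numbers 1, 5, 6 and 7 in each group. The mutant line was kept on a mixed genetic background, females of the colony had been given gonadotropins before mating, and the mutation was carried by the whole embryo rather than by the pSHF alone. Each pool was hybridised to 1 single-colour array, and numbers 1 and 5 bear one array label while 6 and 7 bear another. By their barcodes, each label was a separate slide. On both slides the Tbx5-/+ arrays lay at positions 1 and 3 and the wild-type arrays at 2 and 4, with each embryo number at adjoining positions. Genotype and position on the slide therefore cannot be told apart, nor can embryo number and adjoining positions. Because the samples are pieces of tissue, fewer cells of a type and less RNA per cell cannot be told apart.

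The share of spots well above background was 45.0% to 52.8% on the Tbx5-/+ arrays and 50.9% to 63.6% on the wild-type arrays, and no spot was saturated. One Tbx5 probe (A_52_P523712) read 9.00, 9.73, 9.16 and 8.62 on the log2 scale in Tbx5-/+ 1, 5, 6 and 7, against 11.46, 11.55, 10.42 and 11.54 in wild-type 1, 5, 6 and 7. All mutant values lay below all wild-type values. The difference was -2.11, with an adjusted p of 0.0924 in limma. The other Tbx5 probe (A_51_P469338) differed by -0.15, with overlapping groups. Signals below are log2 values after variance stabilising normalisation (VSN), and differences are Tbx5-/+ minus wild-type. The median difference over all probes tested was -0.19 under VSN and lay between -0.21 and 0.13 under the other scalings, so differences are also given relative to that median.

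The Wwtr1 result rests on a pair of probes, both annotated to the same transcript on the minus strand of chromosome 3 (mm9). The first, A_51_P502608, maps to chr3:57262551-57262610. The second, A_52_P571444, spans chr3:57263010-57266477, so that its 60 bases come from separate exons. Its sequence and those of the probes of Tead2 (A_51_P227739, chr7:52487612-52487671, plus strand) and Tead3 (A_52_P534894, chr17:28469722-28469898, minus strand, also across an intron) are shown because their mutant means fell below wild-type by more than those of another probe or another member of the family.
Wwtr1 A_52_P571444: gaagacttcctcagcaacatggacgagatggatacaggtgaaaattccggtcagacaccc
Tead2 A_51_P227739: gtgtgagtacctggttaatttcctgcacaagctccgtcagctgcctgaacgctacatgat
Tead3 A_52_P534894: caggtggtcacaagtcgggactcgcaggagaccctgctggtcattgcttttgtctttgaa

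TEAD proteins are known to bind the letters GGAATG, so the 250 bases upstream of each RefSeq start (GRCm38.p6) were searched for them on both strands. Windows were at hand for 7 of the 10 genes, and those of 4 (Yap1, Wwtr1, Tead3 and Cyr61) held a match, whereas 14.4% of 27025 genes and 12.6% of 32851 windows did. The core of the T-box site, AGGTGT, the kind of site that Tbx5 binds, was found in the windows of 0 of the 7 genes and of 13.6% of all genes. With no T-box match among the members, no match of one motif overlapped the other. A match describes the letters only. The windows of Wwtr1 (chr3:57575911-57576160, minus strand) and Cyr61 (chr3:145649986-145650235, minus strand) are shown in the direction of transcription as an effector and a target, with the match or its reverse complement in capitals. The match begins 136 bases upstream of the start in Wwtr1 and 103 bases upstream in Cyr61.
Wwtr1: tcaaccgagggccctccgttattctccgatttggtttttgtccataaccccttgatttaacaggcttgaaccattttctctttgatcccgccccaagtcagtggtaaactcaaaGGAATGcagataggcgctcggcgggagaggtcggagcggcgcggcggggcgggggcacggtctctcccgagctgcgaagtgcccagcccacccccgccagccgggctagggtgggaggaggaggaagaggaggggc
Cyr61: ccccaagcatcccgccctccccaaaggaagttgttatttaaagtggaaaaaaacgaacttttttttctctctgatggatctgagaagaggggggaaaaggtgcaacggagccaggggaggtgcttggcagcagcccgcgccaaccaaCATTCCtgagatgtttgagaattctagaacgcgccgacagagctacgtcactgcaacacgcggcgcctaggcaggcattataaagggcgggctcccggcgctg

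Across the members, the pair of Wwtr1 probes had the most negative differences between mutant and wild-type, and the probes of Yap1, Lats1, Lats2, Tead2 and Tead4 stayed near the median of all probes or differed between probes of 1 gene. Of the 13 member probes tested, 0 passed an adjusted p of 0.05 in limma, where 0% of all probes did. At an unadjusted p under 0.05, 2 member probes were lower (both of Wwtr1, where 18.4% of all probes tested were) and 0 were higher (3.41% of all). This count turned with the scaling. After scaling to the 75th percentile, quantile normalisation or centring of the arrays, 2 were lower and 2 higher. Of all 20030 probes, 1736, 1859 and 1333 were then lower and 3076, 1905 and 3250 higher. With embryo number as a block, 2 member probes passed the adjusted threshold, again both of Wwtr1 and both lower, where 10.5% of all probes passed as lower. By limma with array weights 6 member probes passed, 4 lower (33.1% of all probes) and 2 higher (16.6% of all), a share no larger than that of all probes, and by the methods' t-test 0 did after adjustment. The groups did not overlap for 1 member probe lower in the mutant (Wwtr1; 8.91% of all) and for 1 higher (Ctgf; 0.749% of all). The members' median difference was -0.16, or 0.029 relative to that of all probes.

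**Figure D1:**
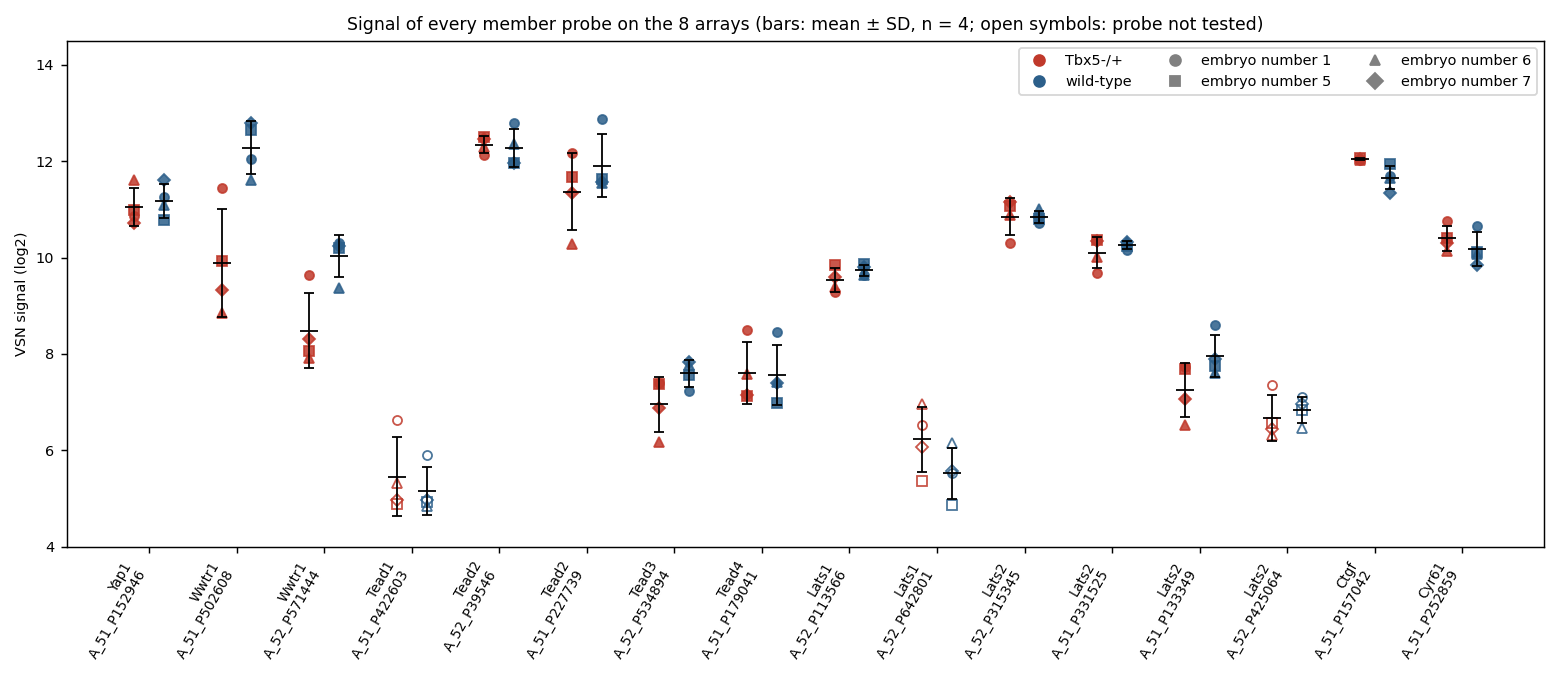
VSN signal (log2, vertical axis) of each of the 16 member probes (horizontal axis) in Tbx5-/+ (red) and wild-type (blue), 1 symbol per array with a shape for each embryo number, and bars for the mean ± SD (n = 4). Levels of different probes are not comparable with each other; the groups separate for Wwtr1 A_51_P502608 and for Ctgf, and open symbols mark the 3 probes not tested.

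Of the effectors, Wwtr1, which encodes the coactivator TAZ, was lower in the mutant with both probes. The signal of A_51_P502608 was 11.45, 9.93, 8.85 and 9.32 in Tbx5-/+ 1, 5, 6 and 7, and 12.05, 12.65, 11.62 and 12.80 in wild-type 1, 5, 6 and 7. Every mutant value lay below every wild-type value, with Tbx5-/+ 1 the closest to wild-type. Means were 9.89 ± 1.13 and 12.28 ± 0.55 (SD, n = 4), a difference of -2.39 with an SE of 0.51 (95% interval -3.54 to -1.24), or 5.25-fold lower. Relative to the median of all probes it was -2.20, and only 15 of the probes tested had a lower difference. The adjusted p was 0.0961 in limma without a block and 0.0340 with the embryo number as a block. The exact permutation test gave 0.0286, the smallest p that 4 arrays against 4 allow.

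The second Wwtr1 probe, A_52_P571444, whose sequence is given above, read 9.63, 8.07, 7.92 and 8.32 in Tbx5-/+ 1, 5, 6 and 7 and 10.30, 10.20, 9.38 and 10.25 in wild-type 1, 5, 6 and 7. The groups overlapped, since wild-type 6 lay below Tbx5-/+ 1. The difference was -1.55 with an SE of 0.38, or 2.93-fold lower, with an adjusted p of 0.105 in limma without a block and 0.0340 with the block. Within embryo numbers 1, 5, 6 and 7 the differences were -0.61, -2.71, -2.77 and -3.49 for the first probe and -0.67, -2.14, -1.45 and -1.93 for the second. Thus the mutant was lower in 4 of 4 numbers with each probe. By array label the first probe differed by -1.66 and -3.13 and the second by -1.41 and -1.69.

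One array had a large part in how these probes were called. Without Tbx5-/+ 1 the differences were -2.91 and -1.93, with adjusted p of 0.00511 and 0.00614 in limma. Leaving out any other array gave adjusted p between 0.0902 and 0.368 for these probes. Both stayed negative under every alternative, from -3.13 to -1.66 for the first probe (adjusted p 0.000113 to 0.348) and from -1.93 to -1.16 for the second (adjusted p 0.000144 to 0.368). The groups of the first probe overlapped, however, after scaling to the 75th percentile (difference -2.10) and after centring of the arrays (difference -2.07).

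Yap1, which encodes the related coactivator YAP, had 1 probe (A_51_P152946, chr9:7932540-7932599, minus strand, mm9). Its signal was 10.86, 11.00, 11.61 and 10.72 in Tbx5-/+ 1, 5, 6 and 7 and 11.26, 10.77, 11.08 and 11.61 in wild-type 1, 5, 6 and 7. The groups overlapped throughout, and 2 of the 4 embryo numbers were higher in the mutant (0.23 and 0.53) and the others lower (-0.40 and -0.88). The difference was -0.13 (95% interval -0.71 to 0.44), with an adjusted p of 0.769 in limma, and 0.057 relative to the median of all probes. Its sign depended on the scaling, with 0.21 after scaling to the 75th percentile, 0.052 after quantile normalisation and 0.19 with arrays centred.

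**Figure D2:**
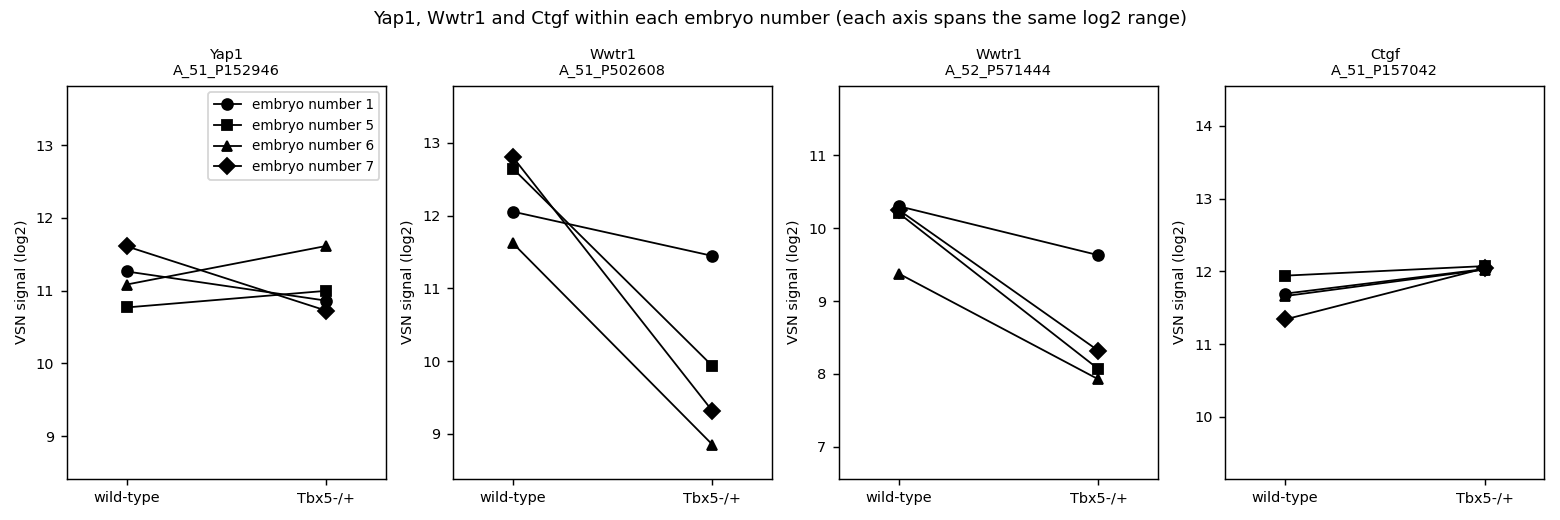
VSN signal (log2, vertical axes, each spanning the same range) of the Yap1 probe, both Wwtr1 probes and the Ctgf probe in wild-type and Tbx5-/+, with a line joining the arrays of each embryo number. The lines fall in 4 of 4 numbers for both Wwtr1 probes and rise in 4 of 4 for Ctgf, while those of Yap1 cross.

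Whether the effectors differed from each other in their change was tested within arrays, where a shift of a whole array drops out. The signal of Yap1 minus that of the brighter Wwtr1 probe was -0.58, 1.06, 2.76 and 1.41 in Tbx5-/+ 1, 5, 6 and 7 and -0.79, -1.88, -0.54 and -1.20 in wild-type 1, 5, 6 and 7. Tbx5-/+ 1 lay among the wild-type values and the other mutant arrays above them. The contrast differed by 2.26 between the groups (exact two-sided permutation p = 0.0571, and 0.171 after Benjamini-Hochberg adjustment over the 3 pairs tested). Without Tbx5-/+ 1 it was 2.84 (exact p = 0.0286, adjusted 0.0857). With 4 arrays against 4 and 3 pairs, this contrast alone could not reach an adjusted p below 0.0857, so the test cannot settle whether the effectors changed alike. A sign-flip test within embryo numbers gave an exact p of 0.125, the smallest that 4 numbers allow, with 4 of 4 in the same direction.

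The kinases Lats1 and Lats2, which phosphorylate YAP and TAZ, did not pass the test with any probe. Lats1 A_52_P113566 (chr10:7435560-7435619, plus strand) read 9.29, 9.84, 9.39 and 9.59 in Tbx5-/+ 1, 5, 6 and 7 and 9.63, 9.86, 9.64 and 9.80 in wild-type. The difference was -0.20 (95% interval -0.63 to 0.22, adjusted p = 0.513 in limma), or -0.016 relative to all probes. A Lats1 probe closer to the 5′ end (A_52_P642801) was well above background on 0 mutant arrays and 1 wild-type array and was not tested. Of the Lats2 probes, A_52_P315345 and A_51_P331525 overlap by 32 bases and are not independent readings. They differed by -0.00012 and -0.16 (adjusted p = 1.00 and 0.640 in limma).

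Another Lats2 probe, A_51_P133349, lies further 5′ (chr14:58309973-58310032, minus strand) and read 7.73, 7.68, 6.53 and 7.06 in Tbx5-/+ 1, 5, 6 and 7 and 8.59, 7.75, 7.61 and 7.90 in wild-type. It was well above background on 3 of 4 mutant and 4 of 4 wild-type arrays, and so was tested through wild-type alone. The groups overlapped, although the mutant was lower in 4 of 4 embryo numbers. The difference was -0.71 (SE 0.32, adjusted p = 0.230 in limma and 0.0641 with the block). The Lats2 probe A_52_P425064, annotated to another transcript, was well above background on 2 mutant and 3 wild-type arrays and was not tested. The change of Lats1 minus that of Lats2, by their brightest probes, was -0.20 (exact permutation p = 0.229, 0.343 over the 3 pairs), and 0.086 when all tested probes of each gene were averaged.

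**Figure D3:**
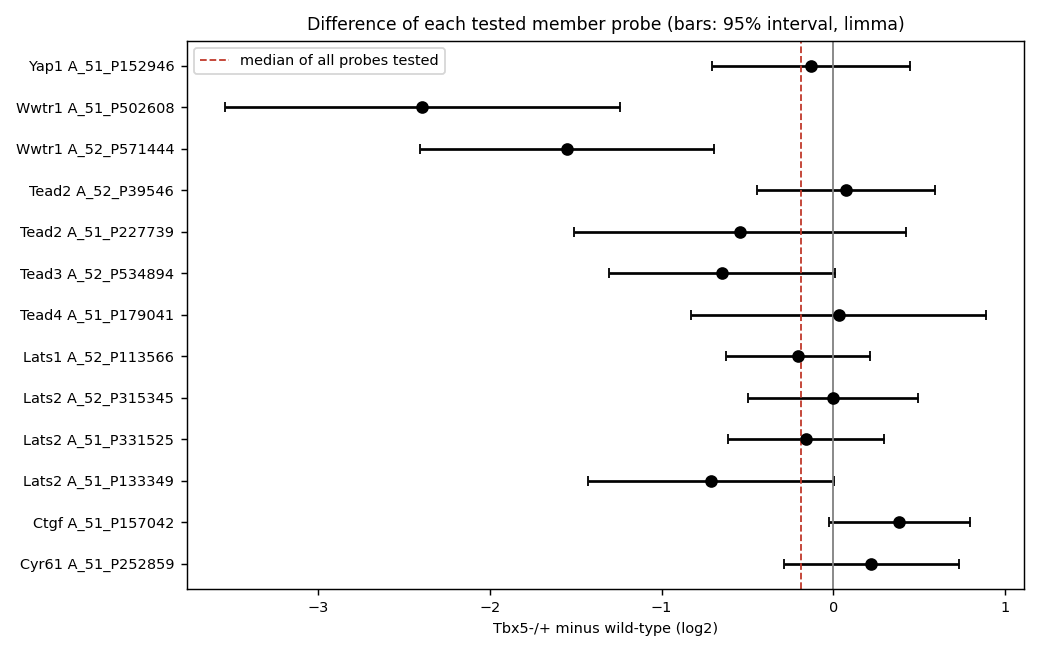
Difference between Tbx5-/+ and wild-type (log2, horizontal axis) for the 13 member probes tested, with bars for the limma 95% interval, and a dashed line at the median of all probes tested (-0.19). The intervals of both Wwtr1 probes lie below 0 and below the dashed line, and all other intervals include 0.

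The Tead genes encode the factors through which YAP and TAZ reach DNA, and none of their tested probes passed the test. Tead2 had probes that differed in sign. A_52_P39546 read 12.12, 12.51, 12.29 and 12.47 in Tbx5-/+ 1, 5, 6 and 7 and 12.80, 11.97, 12.36 and 11.95 in wild-type, a difference of 0.075 (95% interval -0.44 to 0.59, adjusted p = 0.859 in limma). The other, A_51_P227739, lies closer to the 5′ end of the gene and read 12.18, 11.67, 10.28 and 11.33 against 12.88, 11.62, 11.55 and 11.57. Its groups overlapped, with wild-type 1 well above the other wild-type arrays, and the difference was -0.54 (95% interval -1.51 to 0.42, adjusted p = 0.447 in limma).

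Tead3 (A_52_P534894) read 7.40, 7.38, 6.17 and 6.87 in Tbx5-/+ 1, 5, 6 and 7 and 7.22, 7.57, 7.78 and 7.84 in wild-type. It was well above background on 3 of 4 mutant and 4 of 4 wild-type arrays, and so was tested through wild-type alone. The mutant values of numbers 6 and 7 were the low ones, and the difference was -0.010 in array label 1 and -1.29 in array label 2. Over all arrays it was -0.65 (95% interval -1.31 to 0.0078, adjusted p = 0.232 in limma). Tead4 (A_51_P179041, chr6:128177377-128177436, minus strand) read 8.50, 7.13, 7.59 and 7.15 against 8.46, 6.98, 7.41 and 7.40, with both arrays of embryo number 1 the highest of their groups. The difference was 0.031 (95% interval -0.83 to 0.89, adjusted p = 0.968 in limma). Tead4 too was well above background on 3 of 4 mutant and 4 of 4 wild-type arrays, and was tested through wild-type alone. The Tead1 probe (A_51_P422603, chr7:120043000-120043059, plus strand) was well above background on 0 of 8 arrays, so no comparison of Tead1 was made.

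The target genes encode secreted matrix proteins of the CCN family, and both are widely read as reporters of nuclear YAP and TAZ. Ctgf (A_51_P157042, chr10:24318281-24318340, plus strand) read 12.03, 12.07, 12.02 and 12.04 in Tbx5-/+ 1, 5, 6 and 7 and 11.69, 11.94, 11.66 and 11.34 in wild-type. Every mutant value lay above every wild-type value, and the SD was 0.021 in the mutant and 0.25 in wild-type (n = 4). The spreads were closer under other scalings, with SDs of 0.18 and 0.26 after scaling to the 75th percentile. The difference was 0.38 with an SE of 0.18 (95% interval -0.026 to 0.79), or 0.57 relative to all probes. It did not pass the test, with an adjusted p of 0.246 in limma and 0.164 with the block (0.0249 with array weights), and the exact permutation p was 0.0286. The difference was positive under every alternative and the groups remained apart in all 5 scalings, with differences from 0.36 to 0.76. Before any scaling between arrays the background-subtracted signals overlapped, at 2051 to 5542 in the mutant and 3350 to 5314 in wild-type. The separation of the groups thus appears only after scaling. By array label it was 0.23 and 0.53.

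Cyr61 (A_51_P252859, chr3:145310187-145310246, minus strand) read 10.75, 10.41, 10.13 and 10.30 in Tbx5-/+ 1, 5, 6 and 7 and 10.66, 10.12, 10.08 and 9.85 in wild-type. The groups overlapped, although the mutant was the higher in 4 of 4 embryo numbers. The difference was 0.22 (95% interval -0.29 to 0.73, adjusted p = 0.560 in limma), or 0.41 relative to all probes. It was 0.58 after scaling to the 75th percentile, 0.49 after quantile normalisation and 0.54 with arrays centred. With 1 array left out it ranged from 0.11 (without Tbx5-/+ 1) to 0.38 (without wild-type 1). Before any scaling between arrays, the background-subtracted signal was lower in the mutant in 4 of 4 numbers. The change of Ctgf minus that of Cyr61 was 0.16 (exact permutation p = 0.486, also after adjustment over the 3 pairs), which does not show that they changed alike.

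**Figure D4:**
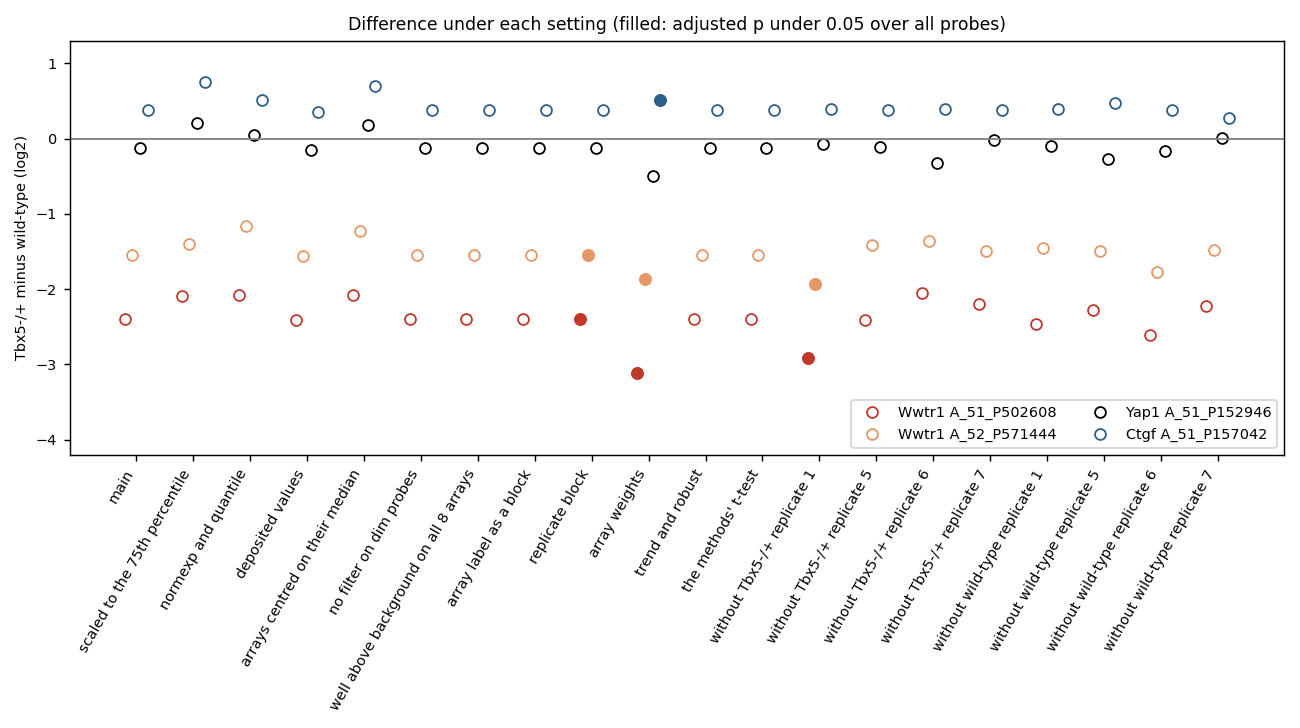
Difference between Tbx5-/+ and wild-type (log2, vertical axis) for both Wwtr1 probes, Yap1 and Ctgf under each setting (horizontal axis), where "main" is VSN with limma and no block, and filled points have an adjusted p under 0.05 over all probes. Both Wwtr1 probes stay below 0 and are filled with the replicate block, with array weights and without Tbx5-/+ 1, Ctgf stays above 0 and is filled with array weights, and Yap1 lies on either side of 0.

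A wider list of Hippo regulators and adaptors held 34 genes, of which 32 were tested, each by its brightest probe. None passed an adjusted p of 0.05 in limma (0 of 32), and at an unadjusted p under 0.05 there were 9 lower (18.4% of all probes) and 2 higher (3.41% of all). The groups did not overlap for 8 of the 32, all lower (8.91% of all probes), and 8 passed as lower with the replicate block (10.5% of all). The median difference was -0.43, against -0.19 for all probes, and 27 of 32 differences were below 0, as were 65.1% of all probes tested, with 34.9% above 0. Vgll4, Fjx1 and Vgll2, all below 0, passed the filter through wild-type alone, and Vgll4 is in each of the counts of lower genes. After scaling to the 75th percentile 19 of 32 were below 0, with a median of -0.16 against 0.096 for all probes. The genes with the smallest p were Taok1 and Taok3, kinases that act upstream of the MST kinases, and Vgll4, a cofactor that competes with YAP for TEAD.

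Taok1 (A_52_P270446) had means of 12.47 ± 0.11 in Tbx5-/+ and 13.61 ± 0.25 in wild-type (SD, n = 4), a difference of -1.14 with an adjusted p of 0.0924 in limma. Its other tested probes differed by -1.25 and -0.63. Taok3 (A_52_P683225) differed by -1.22 (10.72 ± 0.31 against 11.94 ± 0.18, adjusted p = 0.0924 in limma). Vgll4 (A_52_P205797) differed by -1.46 (6.94 ± 0.71 against 8.40 ± 0.35, adjusted p = 0.0991 in limma). It was above background on 3 of 4 mutant arrays and all 4 wild-type arrays, and so was tested only through wild-type, the group where it was higher. The groups did not overlap for any of these genes, and with the replicate block their adjusted p were 0.0340, 0.0340 and 0.0350.

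A list of 25 genes commonly read as targets of YAP and TAZ, other than Ctgf and Cyr61, had 24 tested, and 4 of these also stand in the regulator list. None passed an adjusted p of 0.05 in limma (0 of 24). At an unadjusted p under 0.05, 5 were lower and 0 higher, shares near the 18.4% and 3.41% of all probes. With the replicate block 1 passed as lower, a smaller share than the 10.5% of all probes. The median was -0.28, and 16 differences lay below 0 and 8 above. Fjx1, among the lower, was tested through wild-type alone. Under the percentile, quantile and centred scalings 12 lay on each side. The unadjusted calls also turned, with 1 lower and 3 higher after percentile scaling, 1 and 1 after quantile normalisation and 1 and 3 after centring. Over all 20030 probes the lower and higher calls were 1736 and 3076, 1859 and 1905, and 1333 and 3250.

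The target with the smallest p was Tgfb2, a growth factor of the TGF-beta family, with means of 11.89 ± 0.59 in Tbx5-/+ and 13.19 ± 0.20 in wild-type (SD, n = 4) and no overlap. Its difference was -1.30, with an adjusted p of 0.0961 in limma and 0.0340 with the block. Axl, a receptor tyrosine kinase, differed by -0.68 (adjusted p = 0.173 in limma) and Igfbp3, which binds insulin-like growth factors, by -0.76 (adjusted p = 0.196 in limma). Neither passed with the block (adjusted p = 0.0636 and 0.0739).

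Markers of the tissue and of its neighbours were read beside these results. Of 10 markers of the pSHF, with Tbx5 among them, 10 were tested and 6 were well above background on all 8 arrays. Their summed level (log2) ranged from 14.75 to 17.01 in the mutant and from 15.55 to 16.15 in wild-type, and their differences had both signs. Among those above background on all 8 arrays, Hoxb1 differed by -1.04, Wnt2 by 0.064, Isl1 by 0.35 and Nr2f2 by 0.55. Foxf1a, Osr1, Gata4 and Gli1 differed by -1.59 to -1.14, but were above background on only 2 or 3 of 4 mutant arrays and so passed the filter through wild-type alone. All 6 endothelial markers were well above background on all 8 arrays, with a summed level of 13.54 to 14.14 against 13.92 to 14.17. After each marker was centred, the mean over the pSHF list was lower on every mutant array than on every wild-type array (difference -0.79). That list holds Tbx5 itself and the genes that passed the filter through wild-type alone. The mean over the endothelial list was also lower on every mutant array than on every wild-type array, with a difference of -0.50. Of the endothelial markers, Kdr (-1.11), Tie1 (-0.95), Pecam1 (-0.89) and Tek (-0.41) were lower, and Cdh5 (0.15) and Emcn (0.21) higher.

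All 8 cardiomyocyte markers were also well above background on all 8 arrays (18.00 to 19.17 against 18.25 to 18.86). Of the foregut endoderm markers this held for 5 of 6 (15.25 to 15.87 against 15.32 to 16.64), and of those of mesothelium and proepicardium for 4 of 6 (11.33 to 13.14 against 12.77 to 13.01). It held for 4 of 5 primitive erythrocyte markers (16.41 to 19.02 against 16.50 to 18.36), for 4 of 6 neural tube markers (11.71 to 12.53 against 10.86 to 13.40), with Sox1 on no array, and for 1 of the 3 notochord markers on the array. The part of these markers and of the share of spots above background in the Wwtr1 and Ctgf differences was not tested.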

How the data were processed

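The authors scanned the arrays and deposited spot intensity values, linear and not yet normalised, as written by Agilent Feature Extraction 10.5.1.1 with mm9 coordinates. They also deposited a table of log2 values, which had been corrected for background and normalised with VSN. Here the local background median was subtracted from the mean signal, 1115 outlier spots were left out, repeated spots (245 probes) were averaged, and VSN was programmed in R 4.3.3 (90% of probes kept, 7 iterations). Its values correlated with the deposited ones at r of at least 0.9999 across probes on each array.

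A probe had to be marked well above background by the scanner software on each of the 4 arrays of one group or the other. The 20030 such probes were compared with limma 3.58.1, two-sided, with Benjamini-Hochberg adjustment over all of them and a threshold of 0.05. Single quantities had an exact permutation test over 70 assignments of arrays. The number of arrays limits the precision. Samples of the same embryo number deviated together from their group means (r across probes 0.438, 0.399, 0.592 and 0.137). For number 7 the check was weak, since Tbx5-/+ 7 had a larger r with wild-type 6 (0.37) than with wild-type 7 (0.137). All other pairs of unlike number had an r between -0.598 and 0.095. The numbers were taken as pairs by this check of the data, since the labels give only the number. Fits with the number as a block are given beside the results and rest on this pairing, including that of number 7. When 200 of 20020 simulated probes were changed, limma called 0 of them for a change of 1 on the log2 scale, 151 for a change of 2 and 192 for a change of 3. False calls among the unchanged probes were 0, 13 and 10, and with the block 0, 125 and 180 of the changed probes were called. The simulated noise was independent between arrays and probes, without the deviations shared within embryo numbers here, so these counts need not hold for these data.

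Named genes were all probes of the members and of Tbx5, and the 3 genes with the smallest p in each list where fewer than 3 passed. Likeness was the root mean square difference of centred profiles. Members and lists were chosen with earlier results of these data known. Current symbols and promoter windows came from RefSeq (GRCm38.p6), and the exon or UTR in which a probe lies was not assigned. Alternatives were other scalings, filters, models and blocks, and leaving out each array.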

Additional observations from a re-analysis of the deposited data

Results flagged for a closer look

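Within each group of 4 arrays, a value was looked at again when its gap to the nearest other value exceeded Dixon's limit as a share of the group's range, which chance exceeds in about 1 in 20 groups. This held in 3 of the 32 groups of member probes. For Wwtr1 A_52_P571444, wild-type 6 read 9.375, while the other wild-type arrays lay between 10.2 and 10.3. For Tead2 A_51_P227739, wild-type 1 read 12.88 and the others lay between 11.55 and 11.62. For the Tead1 probe, which was not above background, wild-type 1 read 5.894 and the others lay between 4.847 and 4.957.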

How the results depend on the processing

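The counts depended on how the arrays were weighted or paired and on whether Tbx5-/+ 1 was included. With the replicate block, which compares arrays within embryo numbers, 2186 of all probes passed an adjusted p of 0.05 against 0 without it, and so did 2 member probes, 8 regulators and 1 target. Array weights gave 9957 probes, 22 regulators, 14 targets and 6 member probes, which were both Wwtr1 probes, Tead2 A_52_P39546 (0.42), Ctgf (0.51), and Tead3 (-0.79) and Lats2 A_51_P133349 (-0.68), the last pair tested through wild-type alone. Leaving out 1 array gave 0 to 3836 probes, 0 to 2 member probes, 0 to 11 regulators and 0 to 6 targets, the highest each time without Tbx5-/+ 1, and without wild-type 1 there were 211 probes and 1 regulator. The methods' t-test called 2797 probes lower and 478 higher unadjusted and 0 after Benjamini-Hochberg. The Yap1 and Wwtr1 contrast ranged from 1.73 to 2.84 with 1 array left out. Of the member probes, the block changed the calls of the Wwtr1 probes (adjusted p 0.0340 each) and of no other.

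Signs near 0 turned with the scaling. In the order of 75th percentile, quantile and centred scaling, Yap1 was 0.21, 0.052 and 0.19, Lats1 A_52_P113566 was 0.14, 0.12 and 0.11, Lats2 A_52_P315345 was 0.35, 0.21 and 0.32, and Lats2 A_51_P331525 was 0.17, 0.14 and 0.16. Array weights gave -0.13 for Tead4 and 0.24 and 0.015 for these Lats2 probes. With 1 array left out, the sign also varied for Yap1 (-0.32 to 0.011), Tead2 A_52_P39546 (-0.031 to 0.25), Tead4 (-0.27 to 0.33) and Lats2 A_52_P315345 (-0.10 to 0.18). The Lats1 and Lats2 contrast was 0.086 with probes averaged. The share of lower probes among those with an unadjusted p under 0.05 was 84.3% under VSN and 87.4% in the deposited values. It was 36.1% after percentile scaling, 49.4% after quantile normalisation and 29.1% with centred arrays. The filter also moved it under VSN. With no filter on dim probes it was 72.9%, and the median difference over all probes was 0.042. For probes well above background on all 8 arrays it was 79.7%, with a median of -0.14. The cause was not tested. Signals near background limit Tead1, Tead3, Tead4 and the dim Lats probes.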

Other observations

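Genes whose profile over the 8 arrays was most like that of a member were sought among 13879 genes, each by its brightest tested probe and centred on its mean, as the root mean square of the log2 differences. For Wwtr1 these were Ubn1 (0.127), Sertad2 (0.196) and Phip (0.196), where the median over all genes was 1.42. For Yap1 they were 1700049J03Rik (0.139), Syn1 (0.149) and Tmlhe (0.17), with a median of 0.496. For Ctgf they were the gene of probe A_51_P153013, given in the files by a transcript number only (0.12), 9430002A10Rik (0.138) and BC056474 (0.147), with a median of 0.469. For Cyr61 they were Fut8 (0.112), BC049349 (0.113) and Agpat9 (0.118), with a median of 0.505. The arrays shared their hybridisation and scaling in every profile, and the values are descriptions of these arrays.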
